A study of Bos taurus with 6 samples.

Results

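The genes described here make membrane phospholipids and exchange their fatty acyl chains, in cultured mammary epithelial cells of cattle (Bos taurus). They were chosen by name, from the Kennedy pathway, the phosphatidylserine, phosphatidylinositol and cardiolipin routes, and acyl-chain remodelling. Earlier results of these data were known when these genes and the neighbour lists below were chosen. Of 36 listed genes, 34 had a row among the 24616 of the deposited table, while no row bore the symbols CHKB or PTDSS2, which were not analysed here. The cells fell into a control group and a group given acetate and BHBA (beta-hydroxybutyrate, a ketone body), with 3 RNA-seq libraries each. The acetate appears in the treated titles as NaAc, which is sodium acetate, and the series calls the treated samples high-milk-fat. No dose, treatment time or number of cultures or animals is given in the sources used here, so the p-values cover only variation among these libraries and some of it may be technical. The labels name no sodium-matched control, so effects of sodium, acetate and BHBA cannot be told apart.

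Phosphatidylcholine and phosphatidylethanolamine, the main phospholipids of animal membranes, are built by the Kennedy pathway. Choline or ethanolamine is phosphorylated, activated with CTP and joined to diacylglycerol, the precursor that triacylglycerol synthesis also uses. Lysophospholipid acyltransferases and phospholipases then swap the acyl chains, which sets how saturated a membrane is. In the mammary gland phospholipids form the monolayer of the lipid droplet and the membrane that wraps each milk fat globule, and their ratio is known to bear on droplet size.

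Values are FPKM, fragments scaled by gene length and by all mapped fragments, so levels can be compared between genes, but the read depth behind them is unknown. Summed FPKM ran from 787186 to 1134026 per library, with control replicate 1 the highest. That library had the lowest or the highest value of all 6 for 73.8% of the 11615 genes tested and for 24 of the 33 phospholipid genes tested. Epithelial markers were abundant, all 8 at a mean of at least 1 FPKM, and summed to between 15549 and 20353 FPKM in control and between 12507 and 14965 in treated libraries. KRT5, a basal keratin, had means of 9104 and 6380 FPKM and made up most of that difference. KRT14, also a basal keratin, went the other way, with means of 15.9 and 22.1 FPKM. The log2 fold changes of KRT7, KRT8, KRT18, KRT19 and EPCAM lay between -0.15 and -0.03, and that of CDH1 was -0.31. Fibroblast markers summed to between 21.5 and 41.1 FPKM in control and between 33.2 and 43.0 in treated libraries, with 6 of 7 at a mean of at least 1 FPKM. The summed leukocyte markers stood at 4.24 to 5.62 FPKM in control and 7.08 to 8.38 in treated libraries, mostly CD14, while the pan-leukocyte gene PTPRC reached at most 0.03. Endothelial markers summed to between 2.56 and 3.79 against 3.75 and 5.84 FPKM, nearly all of it VWF, with PECAM1 at most 0.06 and CDH5 at most 0.03. The 3 adipocyte markers summed to at most 0.57 FPKM in any library. No list had a member at 0 in all 6 libraries. The part of these differences in the results below was not tested, and in bulk RNA fewer cells of a type and less RNA per cell cannot be told apart.

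LPCAT4, an acyltransferase that puts fatty acids back onto lysophosphatidylcholine and lysophosphatidylethanolamine, was the 1 phospholipid gene that passed the test, and it rose 1.91-fold. The gene (ENSBTAG00000020040) stood at 22.2, 24.3 and 21.2 FPKM in control replicates 1, 2 and 3 and at 40.2, 46.5 and 44.0 FPKM in treated replicates 1, 2 and 3. All treated libraries lay far above all controls, and control replicate 1 lay between the other controls. Its mean went from 22.6 ± 1.59 to 43.6 ± 3.21 FPKM (SD, n = 3 per group), a log2 fold change of 0.93 ± 0.12 SE with a 95% interval from 0.65 to 1.22 (limma, adjusted p = 0.0437 over all genes tested). The added 0.5 in log2(FPKM + 0.5), the scale of every fold change here, makes changes of low genes look smaller than they are.

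The other 32 tested genes did not pass. Among all genes tested 0.474% passed, 55 in all, with 0.344% higher and 0.129% lower in treated cells. The higher ones made up 72.7% of the 55, or 56.5% of the calls with quantile normalization. On the higher side in treated cells were 22 of the 33 phospholipid genes (66.7%), against 61.9% of all genes tested. That count ran from 19 with quantile normalization to 28 after rescaling each library to the same sum. Without control replicate 1 it was 23 (69.7%), against 49.6% of all genes. The median log2 fold change was 0.12 over the phospholipid genes and 0.08 over all genes tested. These medians were 0.022 and 0.0018 with quantile normalization, and 0.19 and 0.147 after rescaling. The 61.9% belongs to the values without further scaling, here and below. With an unadjusted p under 0.05 there were 6 phospholipid genes (18.2%), against 11.0% of all genes. Of these, 5 were higher (15.2%, against 7.42%) and 1 was lower (3.03%, against 3.62%). The control and treated libraries did not overlap in 9 of the 33 (27.3%), against 19.7% of all genes tested. In 8 of them (24.2%, against 13.0%) the treated libraries were the higher, and in 1 (3.03%, against 6.69%) the lower.

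The call for LPCAT4 held in 8 of 17 alternatives, with adjusted p from 0.00160 to 0.577, and its log2 fold change stayed between 0.86 and 1.01 in all 17. It was lost after rescaling to the same sum (adjusted p = 0.0922), with trimmed-mean factors (0.0756), without a variance trend (0.0545) and with the replicate block (0.577). Without control replicate 2 or 3 its adjusted p (limma) was 0.188 and 0.195, and without treated replicate 1, 2 or 3 it was 0.170, 0.317 and 0.249. In each of these 5 limma fits 0 of 33 phospholipid genes passed. An unadjusted limma p under 0.05 was found for 2 to 4 of them. Over all genes the number was 731 to 1038, of 11564 to 11623 tested. Of all genes tested, 1 passed without control replicate 3 and 0 in the rest of these fits, so the loss was general. Without control replicate 1 LPCAT4 was 1 of 205 genes that passed (limma adjusted p = 0.0257).

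**Figure D1:**
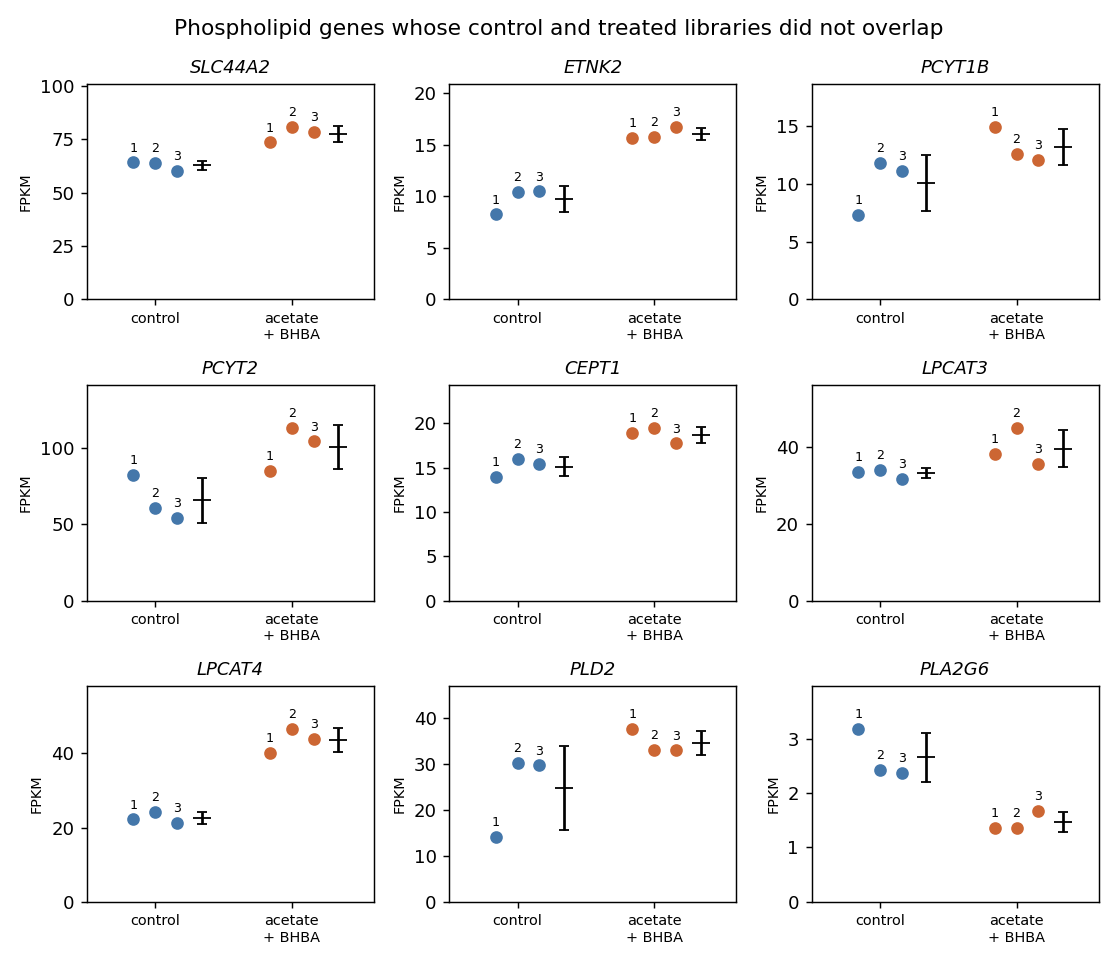
FPKM in each library (points, numbered by replicate) of the 9 phospholipid genes whose control (blue) and treated (orange) libraries did not overlap, with the mean and SD of 3 libraries in black and axes starting at 0. LPCAT4 has a gap far wider than its spread, while PCYT1B, PCYT2 and LPCAT3 are separated by a narrow margin, and PLA2G6 is the 1 gene that is lower in treated cells.

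Choline can enter cells through choline transporter-like proteins, and the genes for 2 of them were among the listed genes. SLC44A2 (ENSBTAG00000002628) stood at 64.1, 64.1 and 60.2 FPKM in control replicates 1 to 3 and at 73.5, 80.8 and 78.3 FPKM in treated replicates 1 to 3. Its treated libraries were all above its controls, and neither group had a library far from the rest. The log2 fold change of SLC44A2 was 0.30 ± 0.10 (limma adjusted p = 0.339). SLC44A1 (ENSBTAG00000007163), the best studied choline transporter of the family, stood at 6.66, 65.9 and 96.6 FPKM in the controls and at 96.3, 35.5 and 36.8 FPKM in treated cells. Control replicate 1 was the low library and treated replicate 1 was close to control replicate 3, so the groups overlapped widely. The log2 fold change of SLC44A1 was 0.50 ± 0.999 with all libraries (adjusted p = 0.933) and -0.67 without control replicate 1.

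The kinases of the first Kennedy step were moderate in level. ETNK2 (ENSBTAG00000018509), which phosphorylates ethanolamine, stood at 8.23, 10.4 and 10.5 FPKM in controls and at 15.7, 15.8 and 16.7 FPKM in treated cells. Its lowest treated library was well above its highest control. The log2 fold change of ETNK2 was 0.71 ± 0.14, or 1.63-fold, with a 95% interval from 0.36 to 1.05 (limma adjusted p = 0.118). Its paralog ETNK1 stood at 5.34, 10.9 and 12.0 FPKM in controls and 13.5, 8.63 and 7.92 in treated cells, with overlapping groups and a log2 fold change of 0.12 ± 0.35, or -0.22 without control replicate 1. CHKA, the choline kinase, had means of 15.5 ± 2.57 and 15.3 ± 2.12 FPKM (SD, n = 3 per group) and a log2 fold change of -0.02 with a 95% interval from -0.44 to 0.40.

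Of the enzymes of the CTP step, which set the pace of the pathway, the ethanolamine enzyme had a far higher FPKM than the choline enzymes. PCYT2 (ENSBTAG00000001868), which makes CDP-ethanolamine, stood at 81.9, 60.4 and 54.0 FPKM in controls and at 84.8, 112.8 and 104.0 FPKM in treated cells. The groups were apart by the small step from control replicate 1 to treated replicate 1. Their difference for PCYT2 was a log2 fold change of 0.63 ± 0.19, or 1.55-fold, with a 95% interval from 0.16 to 1.10 (limma adjusted p = 0.289), and 0.80 without control replicate 1. PCYT1A (ENSBTAG00000016979), which makes CDP-choline and is the classic rate-limiting enzyme of phosphatidylcholine synthesis, stood at 5.82, 8.88 and 10.7 FPKM in controls and 11.9, 8.11 and 8.50 in treated cells. Its groups overlapped, with a log2 fold change of 0.18 ± 0.26 (adjusted p = 0.914), or -0.05 without control replicate 1. PCYT1B, the second choline enzyme, stood at 7.32, 11.8 and 11.1 FPKM in controls and 15.0, 12.6 and 12.1 in treated cells. Those groups did not overlap, but by a margin smaller than the range among the controls, and the log2 fold change was 0.39 ± 0.21, or 0.19 without control replicate 1.

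For the phosphotransferases, which complete the Kennedy pathway, no difference passed. CEPT1 (ENSBTAG00000020169), which makes both phosphatidylcholine and phosphatidylethanolamine, stood at 14.0, 15.9 and 15.4 FPKM in controls and 18.9, 19.5 and 17.7 in treated cells. All of its treated libraries were above its controls, with a log2 fold change of 0.30 ± 0.12 (limma adjusted p = 0.430). CHPT1, the choline-specific enzyme, had a log2 fold change of 0.19 with a 95% interval from -0.16 to 0.54. PEMT, which methylates phosphatidylethanolamine to phosphatidylcholine and is chiefly known from liver, was low, with means of 7.44 ± 2.46 and 7.78 ± 2.18 FPKM (SD, n = 3 per group). For PEMT the log2 fold change was 0.06, or below 0 with quantile normalization and trimmed-mean factors, with an interval from -0.65 to 0.78.

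Phosphatidylserine genes showed no difference that passed. PTDSS1 (ENSBTAG00000013901), which makes phosphatidylserine from phosphatidylcholine, was among the most abundant of the genes, at 73.7, 68.1 and 64.0 FPKM in controls and 65.5, 76.3 and 76.1 in treated cells. The groups overlapped, and the log2 fold change was 0.08 with a 95% interval from -0.21 to 0.37 (limma adjusted p = 0.917). PISD, the mitochondrial decarboxylase that turns phosphatidylserine into phosphatidylethanolamine, had means of 17.1 and 18.7 FPKM and a log2 fold change of 0.13, with an interval from -0.24 to 0.49.

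On the CDP-diacylglycerol branch, the highest level of all the phospholipid genes was that of CDIPT (ENSBTAG00000007954), the phosphatidylinositol synthase, with 136.7, 104.9 and 88.7 FPKM in controls and 95.2, 123.2 and 110.2 in treated cells. Its groups overlapped and its means of 110 ± 24.4 and 110 ± 14.0 FPKM (SD, n = 3 per group) gave a log2 fold change of 0.01 with a 95% interval from -0.45 to 0.47. CDS1 and CDS2, the CDP-diacylglycerol synthases, had control means of 5.17 and 14.4 FPKM, with log2 fold changes of 0.38 ± 0.28 and -0.01 ± 0.16. Without control replicate 1 these were 0.13 and -0.12. PGS1, PTPMT1 and CRLS1, the successive enzymes from CDP-diacylglycerol to cardiolipin in mitochondria, had log2 fold changes of 0.00 ± 0.12, 0.00 ± 0.29 and -0.18 ± 0.15, and those of PGS1 and PTPMT1 turned above 0 after rescaling to the same sum. PTPMT1, a phosphatase, was highest in control replicate 1, at 60.3 FPKM, against 30.1 to 50.7 in the other libraries.

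**Figure D2:**
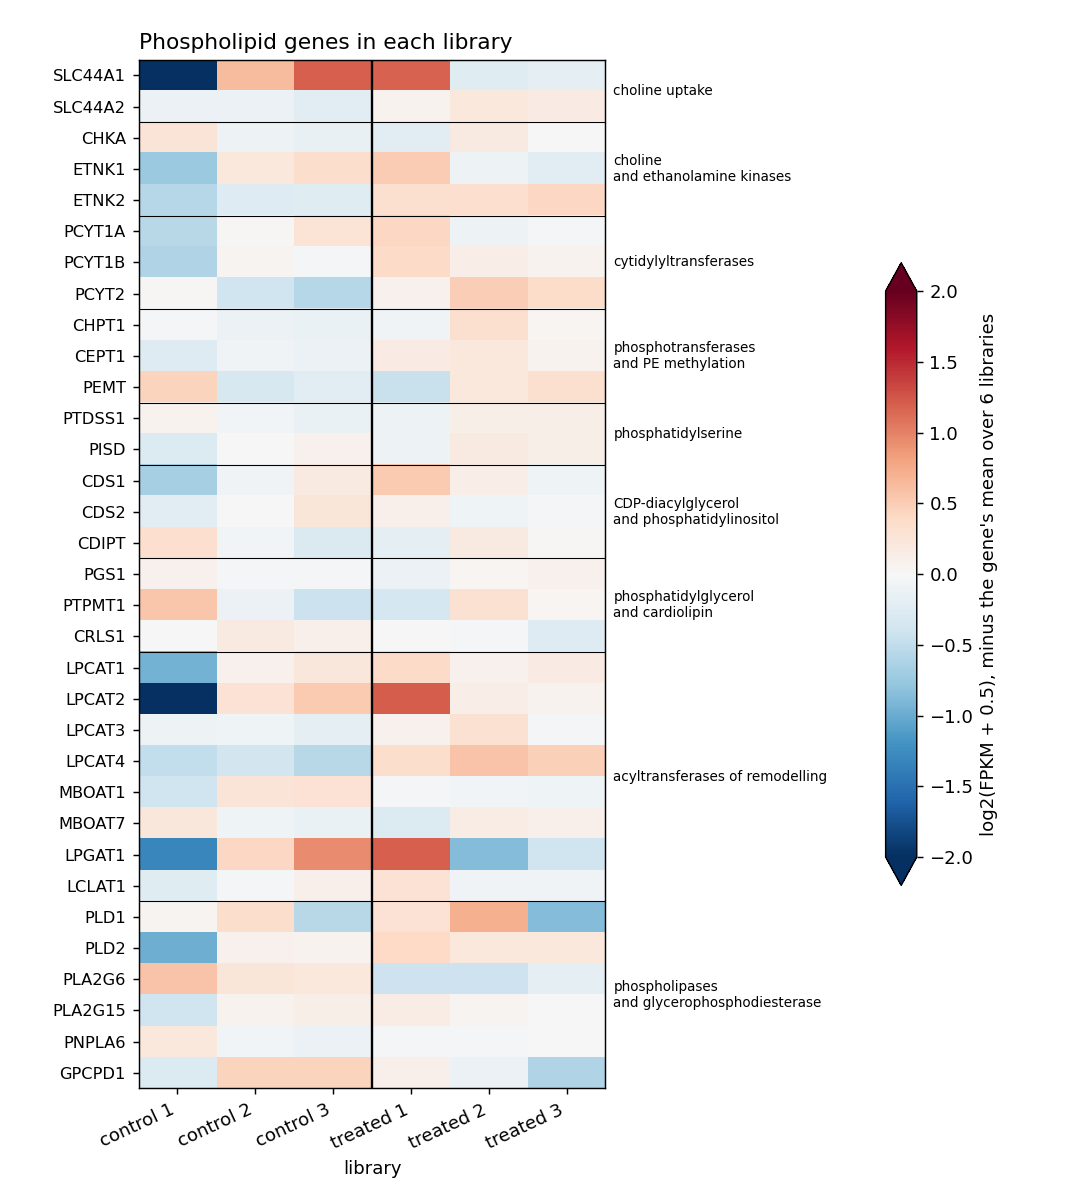
log2(FPKM + 0.5) of each of the 33 tested phospholipid genes (rows, grouped by role) in each library (columns), minus the gene's mean over the 6 libraries, with red above and blue below the mean and the scale ending at 2 either way. LPCAT4 and ETNK2 turn from blue to red between the groups, SLC44A2 and CEPT1 do so faintly, and PLA2G6 turns from red to blue. SLC44A1, LPCAT2 and LPGAT1 are lowest in control replicate 1 and vary within both groups.

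The remodelling acyltransferases differed widely in level and in how steady they were. LPCAT3 (ENSBTAG00000013127), which adds polyunsaturated chains and is a target of the sterol receptor LXR, stood at 33.5, 34.1 and 31.6 FPKM in controls and 38.2, 44.9 and 35.5 in treated cells. Its groups did not overlap, though treated replicate 3 lay close to the controls, and its log2 fold change was 0.25 ± 0.13 (limma adjusted p = 0.587). LPCAT1, known for the saturated phosphatidylcholine of lung surfactant, had a log2 fold change of 0.42 ± 0.32, or 0.06 without control replicate 1. LPCAT2 (ENSBTAG00000019272), which also makes platelet-activating factor, stood at 0.19, 3.48 and 4.16 FPKM in controls and 7.01, 3.07 and 2.92 in treated cells. Its large log2 fold change of 0.95 ± 0.77 (adjusted p = 0.809) fell to 0.07 without control replicate 1, the library in which it was lowest.

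LPCAT4 made up 35.0%, 31.3% and 28.5% of the summed FPKM of LPCAT1 to LPCAT4 in control replicates 1 to 3, and 38.3%, 42.2% and 44.4% in treated replicates 1 to 3. LPCAT3 held the largest share in every control library, with 52.9%, 43.9% and 42.5%, whereas LPCAT4 held it in every treated library. Within each library the ratio of LPCAT4 to LPCAT3 was 0.662, 0.713 and 0.670 in controls and 1.05, 1.04 and 1.24 in treated cells. The 2 sets of ratios did not overlap. The mean log2 ratio differed by 0.70 between the groups (2-sided exact permutation test, p = 0.1, the smallest that 3 against 3 libraries allow, adjusted p = 0.4 over 8 ratios of related genes chosen after their values were seen). The ratio of CDS2 to CDS1 was the other that did not overlap, at 3.52, 2.60 and 2.55 in controls and 1.80, 2.12 and 2.55 in treated cells, with the nearest libraries separated by 2.553 against 2.547 (exact p = 0.1, adjusted p = 0.4).

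MBOAT1 and MBOAT7 ranked next after CDIPT in mean FPKM. MBOAT1 (ENSBTAG00000016519), an acyltransferase of lysophosphatidylserine and lysophosphatidylethanolamine, stood at 65.8, 104.3 and 106.7 FPKM in controls and 85.4, 83.7 and 82.0 in treated cells. The treated libraries all lay between control replicate 1 and the other controls. MBOAT1 had a log2 fold change of -0.11 ± 0.20 (limma adjusted p = 0.929), or -0.33 without control replicate 1. MBOAT7 (ENSBTAG00000015908), which puts arachidonate onto lysophosphatidylinositol, stood at 96.7, 78.0 and 75.0 FPKM in controls and 68.5, 92.0 and 89.1 in treated cells, with a log2 fold change of 0.00 and a 95% interval from -0.41 to 0.40. MBOAT2 was near 0, between 0.11 and 0.41 FPKM, and was the 1 gene with a row that lay below the minimum mean of 1 FPKM and was not tested. LPGAT1, named for lysophosphatidylglycerol, stood at 0.91, 4.16 and 6.25 FPKM in controls and 7.52, 1.41 and 2.15 in treated cells, so that the spread within each group exceeded the difference between them. LCLAT1, the lysocardiolipin acyltransferase, had a log2 fold change of 0.11 with an interval from -0.34 to 0.55.

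Among enzymes that break phospholipids down, PLA2G6 (ENSBTAG00000014015), a calcium-independent phospholipase A2, stood lower in treated cells without passing. It was low throughout, at 3.18, 2.43 and 2.37 FPKM in controls and 1.36, 1.36 and 1.68 in treated cells, with no overlap. PLA2G6 had a log2 fold change of -0.68 ± 0.21, with a 95% interval from -1.19 to -0.16 (limma adjusted p = 0.300). PLD2 (ENSBTAG00000013392), which releases choline and phosphatidic acid from phosphatidylcholine, stood at 14.2, 30.4 and 29.8 FPKM in controls and 37.7, 33.1 and 33.0 in treated cells. Treated libraries were all higher, but control replicate 1 was far below the other controls, and the log2 fold change of 0.55 ± 0.30 (adjusted p = 0.618) was 0.20 without it. Its paralog PLD1 was lower, at 2.27 to 4.69 FPKM in controls and 1.72 to 6.18 in treated cells, with a log2 fold change of 0.09 ± 0.46.

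The lysosomal phospholipase PLA2G15 had a log2 fold change of 0.14 ± 0.19. PNPLA6, also called neuropathy target esterase, which strips both acyl chains from phosphatidylcholine, had one of -0.04 ± 0.14, which was above 0 after rescaling or with summed FPKM as a covariate. GPCPD1, which splits the resulting glycerophosphocholine and so returns choline, stood at 1.22, 2.34 and 2.35 FPKM in controls and 1.75, 1.42 and 0.88 in treated cells. Its groups overlapped through control replicate 1, and its log2 fold change of -0.41 ± 0.32 was -0.65 without that library.

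**Figure D3:**
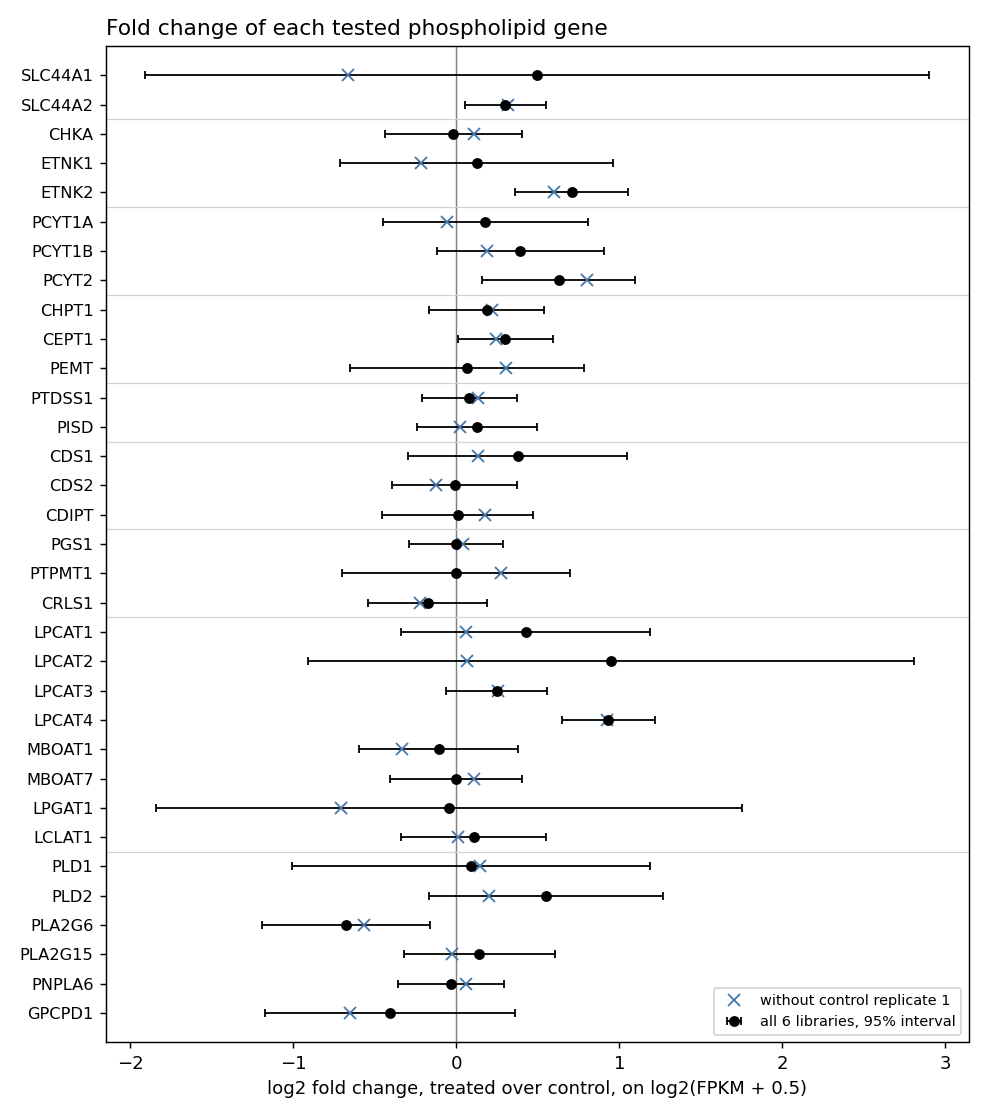
log2 fold change of treated over control cells for each of the 33 tested phospholipid genes, ordered by role, with the limma 95% interval (dots and bars) and the value without control replicate 1 (blue crosses). LPCAT4, at 0.93 with an interval from 0.65 to 1.22, barely moves without that library, while SLC44A1 moves from 0.50 to -0.67 and LPCAT2 from 0.95 to 0.07.

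Libraries of the same group also differed from each other, and in the same pattern in both groups. Control replicate 1 had the lowest of the 6 values in 16 of the 33 genes (48.5%, against 48.1% of all genes tested) and the highest in 8. Treated replicates 2 and 3 departed from treated replicate 1 in the same direction as control replicate 1 departed from control replicates 2 and 3 in 29 of the 33 (87.9%, against 83.0% of all genes tested). These contrasts share no library. The split of replicate 1 from replicates 2 and 3, and its opposite sign in treated cells, follow no label of the samples, so the agreement is descriptive only. Both contrasts set higher summed FPKM against lower. Control replicate 1 summed to 1134026 FPKM, against 847971 and 816087 in control replicates 2 and 3. Treated replicates 2 and 3 summed to 936152 and 912431, against 787186 in treated replicate 1. The part of summed FPKM in the agreement was not tested. Across the 33 genes, which were measured in the same libraries and are not independent, the 2 contrasts had a Pearson r of 0.89 and a Spearman rho of 0.86. Over all 11615 genes tested the values were 0.73 and 0.82. SLC44A1 had the largest departure in the controls, at -3.49 on the log2 scale, and -1.40 in treated cells. LPGAT1 had -1.99 and -1.83, and LPCAT2 had -2.64 and -1.10. PEMT and PTPMT1 lay at the other end, with 0.72 and 0.71 for PEMT and 0.83 and 0.52 for PTPMT1. LPCAT4, the gene that passed, had -0.03 and 0.17, small beside these.

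**Figure D4:**
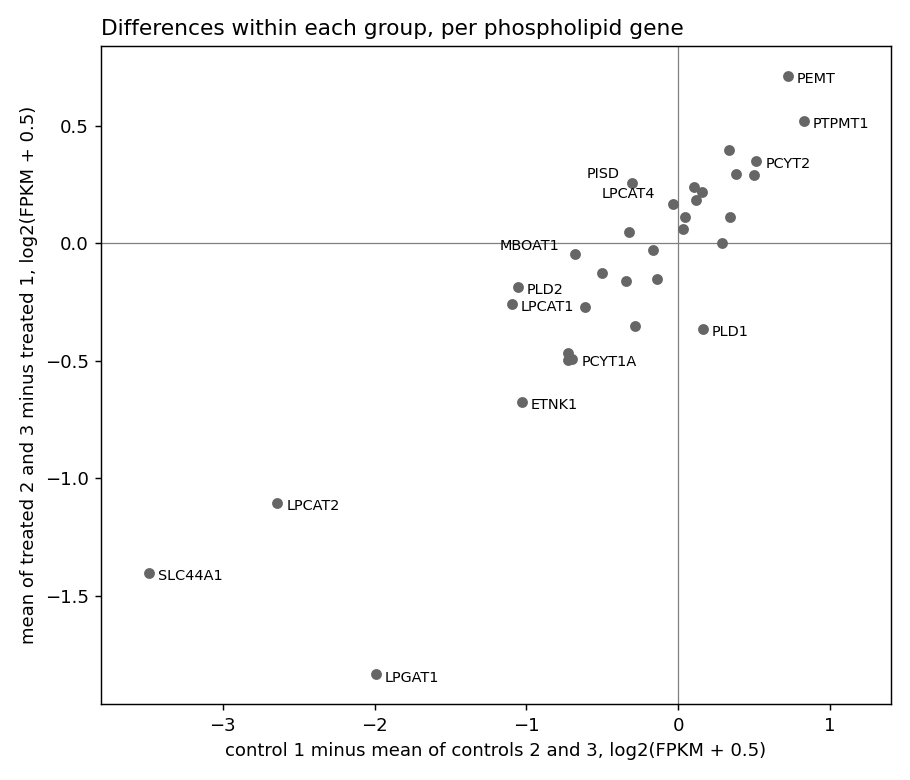
For each of the 33 tested phospholipid genes, the difference of control replicate 1 from control replicates 2 and 3 (x axis) against the difference of treated replicates 2 and 3 from treated replicate 1 (y axis), both on log2(FPKM + 0.5). The points rise together (Pearson r 0.89 across genes), from SLC44A1, LPCAT2 and LPGAT1 at the lower left to PEMT and PTPMT1 at the upper right.

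With the log2 of summed FPKM as a covariate, 9 phospholipid genes passed (27.3% of 33), but so did 2089 of all genes tested, or 18.0%. Of these 9, 8 were higher in treated cells, namely SLC44A2, ETNK2, PCYT1B, PCYT2, CEPT1, LPCAT2, LPCAT4 and PLD2, and PLA2G6 was lower. Of the 2089 genes that passed in the same fit, 1361 (65.2%) were higher and 728 were lower. PCYT2 then had a log2 fold change of 0.72 (limma adjusted p = 0.00120), ETNK2 of 0.67 (0.00412) and PLA2G6 of -0.63 (0.0282).

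Neighbouring genes of phospholipid metabolism were described from 7 further lists with 110 genes, of which 102 had a row and 82 were tested. Of these, 0 passed the threshold (limma). With an unadjusted p under 0.05 there were 7 higher (8.54%, against 7.42% of all genes tested) and 2 lower (2.44%, against 3.62%), together 11.0%, the same share as over all genes. On the higher side were 59 (72.0%, against 61.9% of all genes), or 46 to 67 under other scalings, with a median log2 fold change of 0.17 against 0.08. Control replicate 1 was the lowest of the 6 libraries in 57.3% of the 82, against 48.1% of all genes, and without it 33 (40.2%) were on the higher side, against 49.6% of all genes. TMEM86A, a lysoplasmalogenase that cleaves the ether lipid lysoplasmalogen, stood at 26.2, 30.0 and 24.5 FPKM in controls and 44.6, 53.8 and 45.4 in treated cells. All its treated libraries were higher, with a log2 fold change of 0.82 ± 0.14 (adjusted p = 0.0749). PHOSPHO1, a phosphatase of phosphocholine and phosphoethanolamine best known from mineralizing cartilage, was low, at 0.48 to 0.88 FPKM in controls and 2.05 to 2.36 in treated cells. Its log2 fold change was 1.23 ± 0.24 (limma adjusted p = 0.109), or 1.63 with a pseudocount of 0.1 and 0.95 with 1. Its control mean of 0.65 FPKM lay below the minimum of 1 FPKM, so it was tested only through its treated mean of 2.17.

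OSBPL5, which carries phosphatidylserine between endoplasmic reticulum and plasma membrane, had means of 69.0 ± 2.76 and 96.1 ± 5.81 FPKM (SD, n = 3 per group), and PLCD1, a phospholipase C, of 34.8 ± 5.06 and 53.3 ± 2.09. Their log2 fold changes were 0.47 ± 0.11 and 0.62 ± 0.14 (limma adjusted p = 0.1525 for each). PLCD1 passed without control replicate 1 (log2 fold change 0.72, limma adjusted p = 0.0458), a fit in which 205 of all genes tested passed. On the lower side, PLD3, a lysosomal member of the phospholipase D family, stood at 297.8 to 391.1 FPKM in controls and 203.9 to 247.9 in treated cells. Its log2 fold change was -0.56 ± 0.15 (limma adjusted p = 0.228). PIP5K1B, which makes phosphatidylinositol bisphosphate, was low, at 2.03 to 2.74 FPKM in controls and 1.10 to 1.34 in treated cells. Its log2 fold change was -0.70 ± 0.22 (limma adjusted p = 0.290). With summed FPKM as a covariate all 6 of these neighbours passed, in a fit where 18.0% of all genes tested passed. These 6 were picked for the smallest p in the same libraries, so their passing adds no evidence and cannot be set against that share. By list, 19 of 21 tested phosphoinositide kinases and phosphatases were on the higher side (90.5%, against 61.9% of all genes tested), or 12 to 20 under other scalings. Control replicate 1 was the lowest library in 17 of these 21 (81.0%, against 48.1%). Without it 7 of 21 were on the higher side (33.3%, against 49.6%). Of flippases, floppases and scramblases 9 of 13 were on the higher side, or 8 to 10 under other scalings. Adding summed FPKM to the fit gave 6, and leaving out control replicate 1 gave 2. The count was 6 of 7 for ether lipid genes and 5 of 7 for choline and glycerophosphodiester turnover under every scaling, but 4 in each without control replicate 1. For transfer proteins it was 6 of 7, or 5 to 6, and 6 without that library. It was 10 of 18 for further phospholipases, or 6 to 13, and 6 without that library. For cardiolipin maturation and mitochondrial lipid transport it was 4 of 9, or 4 to 7, and 4 without that library.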

How the data were processed

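Polyadenylated RNA from 6 libraries was sequenced as paired-end reads, per the labels' protocols. The authors deposited 1 table of FPKM values, 1 column per library, rounded to 2 decimals. The submitters' processing notes list the build ARS-UCD1.2 and the tool DESeq2, with no role. Aligner, counter, annotation and strandedness were not given in the sources used here, so overlapping or antisense genes may share reads. No coordinates or sequences are printed. FPKM keeps no read counts, so no count model or depth-based interval was used.

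Genes whose mean reached 1 FPKM were tested on log2(FPKM + 0.5) with limma 3.58.1 in R 4.3.3 (mean-variance trend, 2-sided, Benjamini-Hochberg over all genes tested, threshold 0.05, no covariate, 4 residual degrees of freedom). The fit was tested on simulated data with independent noise of the same SD in every gene and no library effect. The real libraries differ from that setting, so the simulation does not show how the test behaves on them. Trimmed-mean factors were unweighted, and plots were drawn with matplotlib 3.10.9. The members and lists were chosen with earlier results of these data known. Values in every library were to be given for members with an unadjusted p under 0.05 or a log2 change of at least 0.5 either way, for the 3 most abundant, and for PCYT1A, PCYT2, PTDSS1 and LPCAT3. Of the neighbours, the 6 with the smallest p were named. SLC44A3, SLC44A4 and SLC44A5 were also named, as family members of listed genes, after their values were seen. Other genes with values in every library were chosen after their values were seen. Alternatives changed pseudocount, filter, scaling, variance estimate, covariate, block and libraries.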

Additional observations from a re-analysis of the deposited data

How the results depend on the processing

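Of 33 tested phospholipid genes, 17 kept their direction in all alternatives that gave a value and 16 turned in at least 1. The count of all genes past the threshold was 33 with a mean of at least 5 FPKM, 23 after rescaling to the same sum, 2089 with summed FPKM as a covariate and 0 with the replicate block (limma, 584 at an unadjusted p under 0.05), against 55. It was 45 with trimmed-mean factors and 68 without a variance trend. Leaving out 1 library gave 0 to 205. Phospholipid genes past the threshold numbered 0 after rescaling, with trimmed-mean factors, without a variance trend and with the replicate block. In those fits 2 to 5 of 33 had an unadjusted limma p under 0.05, against 584 to 1287 of 11615 genes tested. Phospholipid genes past the threshold numbered 9 with the covariate and 0 to 1 without 1 library. Same-numbered libraries deviated in opposite directions (correlations of -0.73, -0.37 and -0.38). With 3 libraries per group these correlations cannot show whether same-numbered libraries were made as pairs.

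The genes that turned were these. After rescaling, log2 fold changes were 0.054 for CHKA, 0.061 for CDS2, 0.071 for PGS1, 0.073 for PTPMT1, 0.071 for MBOAT7 and 0.037 for PNPLA6. With the covariate they were -0.055 for SLC44A1, -0.055 for ETNK1, 0.054 for CHKA, 0.026 for PGS1, 0.15 for PTPMT1, 0.068 for MBOAT7 and 0.0028 for PNPLA6. With quantile normalization PEMT had -0.025, LCLAT1 -0.027 and PLD1 -0.071, and with trimmed-mean factors PEMT had -0.0048 and CDIPT -0.065. Leaving out 1 library gave ranges of -0.67 to 1.2155 for SLC44A1, -0.11 to 0.11 for CHKA, -0.22 to 0.33 for ETNK1, -0.054 to 0.36 for PCYT1A, -0.082 to 0.31 for PEMT, -0.12 to 0.11 for CDS2, -0.14 to 0.17 for CDIPT, -0.041 to 0.060 for PGS1 and -0.22 to 0.28 for PTPMT1. They were -0.33 to 0.013 for MBOAT1, -0.081 to 0.13 for MBOAT7, -0.71 to 0.42 for LPGAT1, -0.010 to 0.19 for LCLAT1, -0.25 to 0.55 for PLD1, -0.025 to 0.24 for PLA2G15 and -0.10 to 0.062 for PNPLA6. The cause was not tested. With 3 libraries per group and unknown depth, replicate spread is the only error available.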
